A study of Mus musculus with 7 samples.

Results

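The genes described here are coding genes of the mouse that the expression table still names by a RIKEN clone, such as *4921522P10Rik*, and whose clone number begins with 1700, 4921, 4922, 4930, 4931, 4932 or 4933, which are numbers of libraries made from testis. They were taken from the deposited table by its own columns alone: the class of the transcript had to be Coding or Complex, the first gene symbol had to end in Rik and begin with 1 of the 7 numbers, and rows with a DUF622 or Takusan protein domain were left out. No expression value entered this rule. It found 267 genes in 272 rows, of 3997 coding genes by first symbol in 4102 coding rows of the table.

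RNA was taken from seminiferous tubules of adult mice, on a background that the study writes as C56BL/6J, although the sample titles name testes, and every mouse had an array to itself. The 3 wild-type mice were littermates with floxed or intact *Ctcf* alleles and no deletion. The 4 *Ctcf*-cKO mice carried the *Stra8-iCre* transgene with 1 excised and 1 floxed *Ctcf* allele, so that CTCF is lost in germ cells entering meiosis. Expression of the recombinase follows the Stra8 promoter, which is active in spermatogonia and in spermatocytes before leptotene. By immunostaining, the study still saw CTCF in spermatogonia, Sertoli cells and Leydig cells of *Ctcf*-cKO mice. In whole tubules, fewer cells of a type and less RNA per cell cannot be told apart.

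RIKEN clone names were given to mouse cDNAs of unknown function during large-scale cDNA sequencing. A gene keeps the name until its function or family is known. Adult testis was a rich source of such cDNAs, because spermatocytes and round spermatids transcribe many genes that are little used in other tissues, among them genes of the sperm tail, the acrosome and the sperm nucleus. CTCF is a zinc finger protein that binds DNA at many sites and shapes chromatin loops.

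The table gives 2 values for each transcript cluster, which is a set of probes read together that can cover more than 1 transcript. These are the authors' average log2 signal over the wild-type mice and over the *Ctcf*-cKO mice. Below, a difference is the *Ctcf*-cKO average minus the wild-type average on the log2 scale, and a fold is the linear size of that difference. The authors listed only clusters past a linear fold of 2 and a p of 0.05, so that every gene with a row had to differ. Genes that are not listed have no values here, so their differences cannot be described from these values. The table has no values of single mice. No spread between mice and no test was therefore computed. The precision of each value is limited by how many arrays there were. *Ctcf* itself has 0 rows, so the deletion cannot be checked in these values.

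Promoter stretches of 8 genes are shown first, because of the letters searched these were the most over-represented by share in the lower genes against other coding genes. The letters GTTGCCATG are part of the X-box bound by RFX factors, a family that is known to act on genes of cilia and of the sperm tail. They were searched on both strands from 250 bases before to 50 bases after each RefSeq gene start (GRCm38.p6). Of the 195 lower genes with such a window, 8 held the letters (4.10%), against 37 of 2507 other coding genes of the table (1.48%) and 237 of all 27025 genes with a window (0.877%). The other coding genes include lower and higher ones together, and the lower ones were not counted apart. A match describes letters and is not evidence that a factor binds there. All 8 are printed 5′ to 3′ in the direction of the gene, with up to 30 bases on either side and the searched letters, or their complement on the other strand, in capitals.
4930564C03Rik, minus strand, chr17:44880888-44880956: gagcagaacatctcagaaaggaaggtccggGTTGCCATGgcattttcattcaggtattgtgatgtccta
1700001K19Rik, minus strand, chr12:110682648-110682716: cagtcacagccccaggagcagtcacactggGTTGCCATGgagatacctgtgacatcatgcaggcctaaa
1700026D08Rik (Cfap161), minus strand, chr7:83794843-83794911: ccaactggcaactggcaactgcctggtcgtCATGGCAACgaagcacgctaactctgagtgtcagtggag
4933436I01Rik, minus strand, chrX:67921497-67921565: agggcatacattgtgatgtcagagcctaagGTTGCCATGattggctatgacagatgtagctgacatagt
1700109H08Rik, plus strand, chr5:3571618-3571686: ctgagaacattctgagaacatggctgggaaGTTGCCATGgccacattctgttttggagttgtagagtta
1700034J05Rik, minus strand, chr6:146954422-146954483: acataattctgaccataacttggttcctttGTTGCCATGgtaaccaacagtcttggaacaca
1700010I14Rik, plus strand, chr17:8988283-8988332: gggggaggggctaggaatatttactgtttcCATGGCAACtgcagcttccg
1700125H20Rik, plus strand, chr11:85171009-85171077: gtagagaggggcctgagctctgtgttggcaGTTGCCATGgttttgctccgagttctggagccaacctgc

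The 8 genes with these letters had differences from -1.65 (*4930564C03Rik*) to -1.08 (*1700125H20Rik*), which lies inside the range of the other lower genes. *Cfap161*, a protein of the ciliary and flagellar axoneme, is the gene among them with a known place in the sperm tail. Other letters were less frequent in the lower genes than in other coding genes of the table or about as frequent. TGACGTCA, the cAMP response element read by CREM in spermatids, was in 1.03% of the lower genes against 2.71%, CCAAT in 37.9% against 42.8% and TATAAA in 11.8% against 10.6%. Parts of the CTCF motif were also searched. AGGNGGCAG was in 3.08% of the lower genes and 4.55% of the other coding genes, and AGGGGGC in 3.59% and 13.4%. The windows of the lower genes had a median GC content of 50.3% and a median of 4 CpG, against 56.3% and 13 in the other coding genes and 52.7% and 7 in all genes. Whether any of these contrasts holds against other lower coding genes alone was not tested. Nothing about the binding of CREM or CTCF follows from letters that are missing in this window.

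Nearly all of the RIKEN testis-library genes in the table were lower in *Ctcf*-cKO. Of the 267 genes, 260 were lower (97.4%) and 7 were higher (2.62%). Among all coding rows listed there, 62.1% were lower and 37.9% were higher. Coding genes of other RIKEN libraries, which carry the same kind of name from other tissues, were lower in 36 of 56 rows (64.3%), and coding rows with another kind of symbol in 2223 of 3749 (59.3%). Since the table holds only rows past the authors' thresholds, these shares describe the direction of listed genes and not how many genes of each kind differed. The genes were measured in the same mice and are not replicates of each other.

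**Figure D1:**
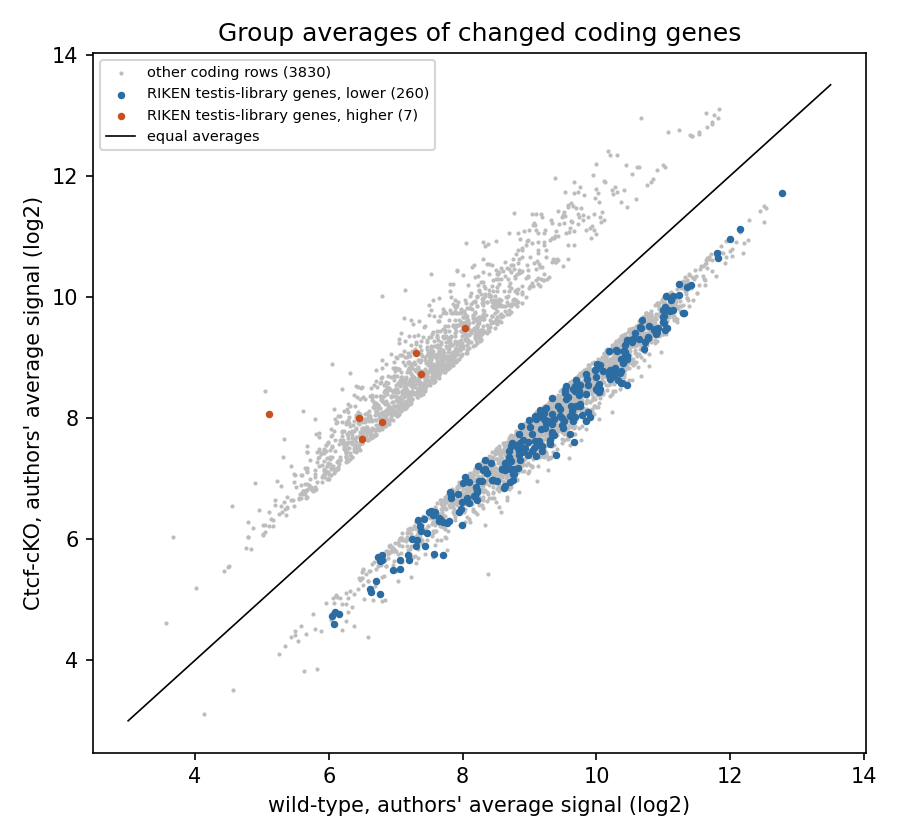
Authors' average log2 signal of each coding row in wild-type (horizontal axis, 3 mice) and *Ctcf*-cKO (vertical axis, 4 mice), with the RIKEN testis-library genes that were lower (blue) or higher (red), other coding rows (grey) and the line of equal averages. The 260 lower genes lie below the line, at wild-type averages from 6.04 to 12.78, and the 7 higher genes lie above it; the empty band around the line is the authors' 2-fold threshold.

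The lower genes had a median difference of -1.38 (quartiles -1.51 and -1.20), a median fold of 2.60, and 37 of the 260 (14.2%) reached a fold of 3. In the other lower coding rows the median was -1.27, the median fold 2.41, and 286 rows (12.5%) reached a fold of 3. Wild-type averages of the lower genes ran from 6.04 to 12.78 (median 9.29) and their *Ctcf*-cKO averages from 4.60 to 11.72 (median 7.93). In *Ctcf*-cKO, 22 genes had an average under 6, and none was under 6 in both genotypes. The median of all 7580 rows was -1.14. With every row re-centred on it, 215 of the 260 lower genes (82.7%) remained below 0, as did 74.5% of the other lower coding rows, and 45 were at or above 0.

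Most genes were lower in each library and each class of transcript. In the largest library, 1700, 121 genes were lower and 3 higher (median -1.33 over all its genes), and in library 4930 69 were lower and 4 higher (median -1.40). The 33 genes of library 4933 (median -1.41), the 12 of 4931 (median -1.37) and the 10 of 4932 (median -1.42) were all lower. The 14 genes of library 4921 were lower with a median of -1.54, and 6 of them (42.9%) reached a fold of 3. Library 4922 has 1 gene, *4922502D21Rik* (now *Clec2m*, a C-type lectin), with an average of 12.78 in wild-type, against 11.72 after deletion of *Ctcf*. Genes of class Coding were lower in 144 of 147 cases and genes of class Complex, which hold coding and non-coding transcripts together, in 116 of 120. The other coding rows were lower in 74.1% of class Coding and 46.6% of class Complex. By the number of probes, 71 of 72 genes were lower at 30 probes or fewer and 72 of 75 at 100 probes or more.

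The 12 genes with the lowest differences had folds of 3.43 or more and come from 5 of the libraries. *4921522P10Rik* had the lowest difference, going from 9.66 in wild-type to 7.61 in *Ctcf*-cKO (-2.05). Next came *4931423N10Rik*, now *Potegl*, an ankyrin repeat gene of the POTE family, with 9.40 and 7.39 (-2.01). *1700061I17Rik*, a long non-coding RNA in RefSeq, averaged 7.71 and 5.73 (-1.98). The uncharacterized *4921528I07Rik* averaged 10.45 and 8.55, and *4930563D23Rik* (*Fam243*) 9.85 and 7.95 (both -1.90). Genes with repeat or calmodulin-binding motifs were among them: *4921506M07Rik* is *Ttc6*, a tetratricopeptide protein (9.90 and 8.02, -1.88), and *1700007B14Rik* is *Iqcm*, an IQ motif protein (9.60 and 7.73, -1.87).

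The remaining 5 of these 12 have a listed protein domain. *4930568D16Rik* carries a family 6 glycosyl transferase domain (7.57 and 5.75, -1.82). *1700025F22Rik* is *Ms4a19*, a membrane protein of the CD20-like family (10.38 and 8.58, -1.80). *1700024P04Rik* is *H2bl1*, a histone H2B variant of the germ line (10.37 and 8.58, -1.79). *4921511C20Rik* on the X chromosome has an RNA-binding K homology domain and is a pseudogene in RefSeq (8.62 and 6.84, -1.78). *4932431P20Rik* is listed with WD40 repeats and is a miscellaneous RNA in RefSeq (8.76 and 6.98, -1.78). At the other end of the lower genes, *1700113H08Rik*, *4930451I11Rik* and *4930542C12Rik* lay just past the authors' threshold, each at -1.01, followed by *1700018L02Rik* (-1.02) and *4933427D14Rik* (-1.03).

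**Figure D2:**
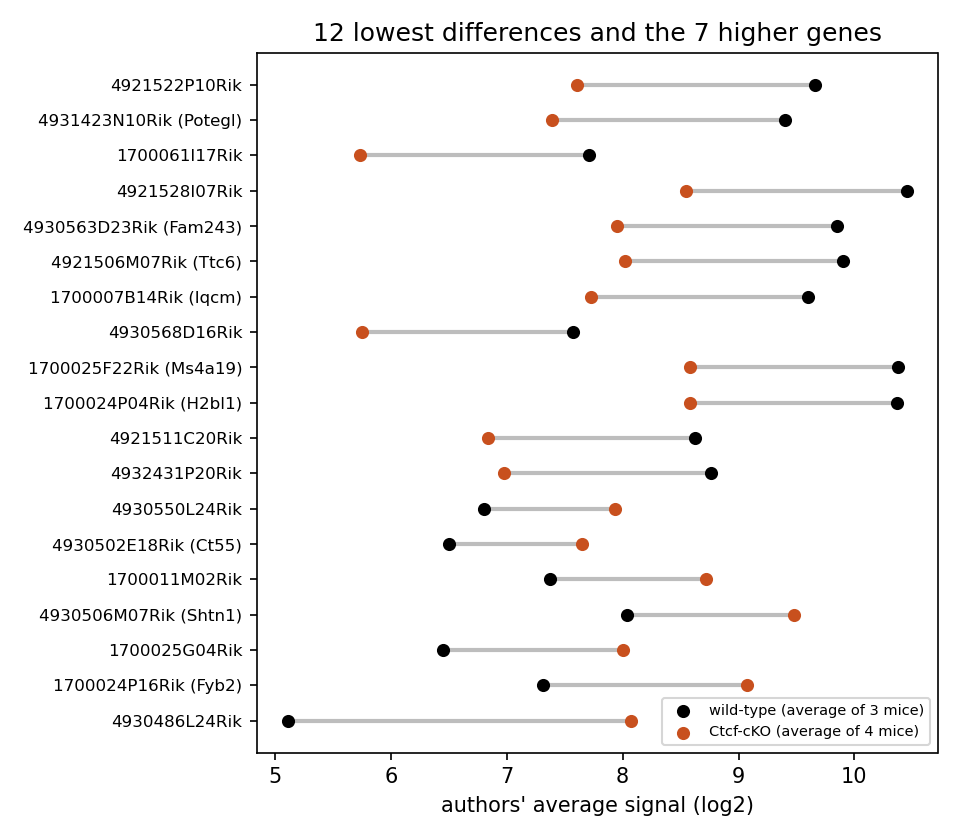
Authors' average log2 signal in wild-type (black, 3 mice) and *Ctcf*-cKO (red, 4 mice) for the 12 RIKEN testis-library genes with the lowest differences and the 7 genes that were higher, 1 gene a line. *4921522P10Rik* goes from 9.66 to 7.61, and *4930486L24Rik* at the bottom goes from 5.11 to 8.07, the longest line of all 19; no error bars are drawn because the table has no values of single mice.

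Many of these genes have been named since the array was designed. RefSeq symbols (GRCm38.p6) were matched for 256 of the 267 genes, of which 176 keep a RIKEN name and 80 have another name now. Of the 80 renamed genes, 77 were lower and 3 higher. RefSeq calls 205 of the 256 protein coding (199 lower, median over all 205 -1.36), 35 long non-coding RNAs (34 lower, median -1.30) and 12 transcribed pseudogenes (all lower, median -1.45). The rest are 2 miscellaneous RNAs, 1 non-coding RNA pseudogene and 1 other pseudogene, all lower. Most of these non-coding RNAs and pseudogenes are of class Complex in the table.

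Some of the renamed genes were grouped by the first letters of their new symbols, and 39 of the 80 fell in none of these groups. Among the groups, that of the sperm tail and of cilia was the largest, a size that depends on the letters chosen. All 16 genes assigned to it by name were lower, where 97.4% of all 267 genes were. Their median difference was -1.40, with a range from -1.88 to -1.03. The 16 genes include 9 of the Cfap series, which stands for cilia and flagella associated proteins. *Cfap161* (*1700026D08Rik*) went from 9.75 in wild-type to 8.19 in *Ctcf*-cKO (-1.56). *Cfap61* (*4930529M08Rik*), a protein at the base of the radial spokes, averaged 9.14 and 7.62 (-1.52). *Cfap54* (*4930485B16Rik*), a component of the central pair apparatus of the axoneme, averaged 9.34 and 8.06 (-1.28).

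The smallest differences in the Cfap series were those of *Cfap126* and *Cfap206*. *Cfap126* (*1700009P17Rik*), also known as Flattop, averaged 9.15 and 8.06 (-1.09), and *Cfap206* (*1700003M02Rik*), a protein of the axoneme, averaged 11.99 and 10.96 (-1.03). Between them and *Cfap161* lay *Cfap97d1* (*1700006E09Rik*, -1.48), *Cfap299* (*1700007G11Rik*, -1.45), *Cfap97* (*4933411K20Rik*, -1.32) and *Cfap157* (*1700019L03Rik*, -1.23). Besides *Ttc6* and *Iqcm*, the group held *Iqca1l* (*4931409K22Rik*, -1.29) and 4 coiled-coil genes from *Ccdc198* (*1700011H14Rik*, -1.64) to *Ccdc7b* (*1700008F21Rik*, -1.34), for which a place in the tail is not established by the name. The list of axoneme genes with an established symbol, such as the dynein heavy chains, had 44 of 50 genes in the table, all lower, with a median of -1.50 and a range from -2.15 to -1.06. *Cfap54* and *Cfap61* are in both lists. After re-centring, *Cfap206*, *Cfap126* and other genes above -1.14 would no longer be below 0.

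Genes of the germ cell nucleus, of meiosis and of the Tex series (testis expressed) formed a second group, to which the *Stpg* genes, named for sperm-tail PG-rich repeats, were also assigned. All 15 were lower, again beside 97.4% of all 267 genes, with a median of -1.51 and a range from -1.79 to -1.12. Besides *H2bl1*, histone variants in it were *H2al3* (*4930557A04Rik*; 8.85 and 7.31, -1.54) and *H2al1m* (*1700012L04Rik*; 11.14 and 10.02, -1.12), both on the X chromosome. Variants of this H2A family are known from the spermatid nucleus at the time when histones are replaced by protamines.

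Meiotic genes were lower as well. *Meikin* (*4930404A10Rik*), a kinetochore protein of the first meiotic division, went from 7.68 in wild-type to 6.31 in *Ctcf*-cKO (-1.37). *Terb2* (*4933406J08Rik*), which helps to hold telomeres at the nuclear envelope in meiotic prophase, averaged 7.25 and 6.0 (-1.25). The 7 Tex genes lay between -1.68 (*Tex45*, *1700019B03Rik*, and *Tex50*, *4930469G21Rik*) and -1.18 (*Tex44*, *1700019O17Rik*). The group also holds *Ubqln5* (*4931431F19Rik*), of the ubiquilin family, whose members bind ubiquitinated proteins, with 9.18 and 7.45 (-1.73). The differences of *Stpg4* (*1700011E24Rik*) and *Stpg3* (*4933433C11Rik*) were -1.33 and -1.16, which would lie inside the range of the sperm tail group too.

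The acrosome and the sperm surface are represented by 2 genes. *Spaca9* (*1700026L06Rik*), named for the acrosome, averaged 9.98 and 8.79 (-1.19). *Llcfc1* (*1700034O15Rik*), which sperm need to fuse with the egg, averaged 12.15 and 11.12 (-1.03). A further 8 genes with spermatogenesis, Fam or Tmem names were all lower (97.4% of all 267 genes were), with a median of -1.23. Among them *Spem2* (*4933402P03Rik*, a relative of a spermatid maturation gene) averaged 11.07 and 9.79 (-1.28) and *Spata46* (*1700015E13Rik*) 9.21 and 8.08 (-1.13).

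The 39 genes that now have another name were lower in 36 cases, with a median of -1.40 over all 39. Several belong to enzyme families. The 3 genes with a family 54 glycosyl transferase domain, relatives of an N-glycan branching enzyme, were *Mgat4d* (*4933434I20Rik*; 10.32 and 8.63, -1.69), *Mgat4f* (*4933406M09Rik*; 10.02 and 8.52, -1.50) and *Mgat4e* (*4931440L10Rik*; 8.68 and 7.26, -1.42). *Mgat4d* is known as an inhibitor of N-glycan processing in spermatids. *Tcp11x2* (*1700008I05Rik*), an X-linked relative of *Tcp11*, averaged 9.37 and 7.71 (-1.66), and *Taf7l2* (*4933416C03Rik*), a relative of a subunit of the general transcription factor TFIID, 9.45 and 8.03 (-1.42). *Armt1* (*1700052N19Rik*), named for methylation of acidic residues and with EST listings in 20 tissues, had one of the smaller differences, with 8.33 and 7.30 (-1.03).

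**Figure D3:**
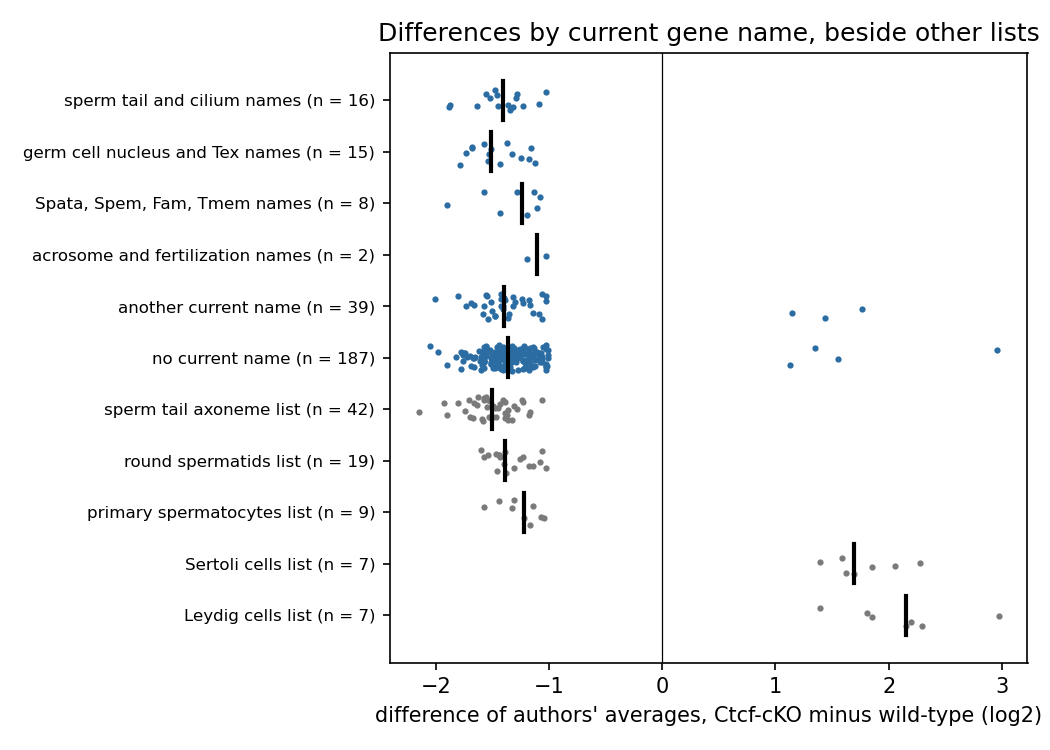
Difference of the authors' averages, *Ctcf*-cKO minus wild-type on the log2 scale, for RIKEN testis-library genes grouped by their present name (blue) and for lists of genes with an established symbol (grey, without the genes already shown in blue). Each point is a gene and each bar the median; sperm tail names (median -1.40) and germ cell nucleus names (median -1.51) have no gene above 0, whereas the 7 genes with a row from the Sertoli list and the 7 from the Leydig list all lie above 0. Of all 267 genes in blue, 97.4% lie below 0.

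Protein domains are listed in the table for 67 of the 267 genes (25.1%) and for 23.2% of the coding rows of other RIKEN libraries. Where several genes shared a domain, their directions were alike except for MAGE proteins, while 97.4% of all 267 genes were lower. The 3 ankyrin repeat genes lay between -2.01 and -1.28, and both family 6 glycosyl transferases, both CD20-like genes, both genes with WD40 repeats and both ARF-type small GTPases were lower. Of the 2 MAGE genes, both on the X chromosome, *1700080O16Rik* was lower (8.71 and 7.15, -1.56) and *4930550L24Rik* was higher. MAGE proteins are known as partners of ubiquitin ligases and many are made mainly in testis.

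Some of the pairs with a shared domain are also neighbours. There were 10 pairs of genes on the same chromosome within 50 kb of each other, and both genes were lower in 9, in a set where 97.4% of all genes were lower. The CD20-like genes *1700017D01Rik* (*Ms4a20*, -1.42) and *Ms4a19* (-1.80) are 8786 bases apart on chromosome 19. The family 6 glycosyl transferases *4930568D16Rik* (-1.82) and *4930402F06Rik* (-1.44) are 7833 bases apart on chromosome 2. The WD40 genes *4932431P20Rik* (-1.78) and *4930432E11Rik* (-1.37), both miscellaneous RNAs in RefSeq, are 18256 bases apart on chromosome 7. The anti-proliferative genes *4930525M21Rik* (*Btg1b*, -1.06) and *4930430D24Rik* (*Btg1c*, -1.18) are 19384 bases apart on the X chromosome. Probes of such related genes may read each other, which was not tested, and 2 of the 10 pairs overlap in position. In the pair that differed, also on the X chromosome and 4460 bases apart, *4930502E18Rik* (*Ct55*) was higher by 1.15 and *1700013H16Rik*, a gene of the Xlr family, had a difference of -1.44.

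The X chromosome held 27 of the 267 genes (10.1%), against 348 of the 3830 other coding rows (9.09%). Of these 27 genes, 24 were lower and 3 were higher (88.9% lower). The other coding rows on the X chromosome were lower in 49.7%. The lower X-linked genes had a median of -1.42, and their differences ran from -1.78 (*4921511C20Rik*) to -1.06 (*Btg1b* and *4932429P05Rik*). Among them were *Samt1b* (*4921511M17Rik*, 8.97 and 7.39, -1.58) and the SANT domain gene *4932411N23Rik* (7.20 and 5.65, -1.55). *4933400A11Rik*, a transcribed pseudogene in RefSeq, is listed with the domain of an actin-capping subunit (8.17 and 6.71, -1.46). The claudin relatives *Cldn34c4* (*4930412D23Rik*, -1.30) and *Cldn34d* (*4930468A15Rik*, -1.24) were lower too. X-linked genes without a listed domain or another name included *4930567H17Rik* (-1.50), *1700010D01Rik* (-1.49), *4930480E11Rik* (-1.48), *4933428M09Rik* (-1.45), *4930402K13Rik* (-1.41), *4930513O06Rik* (-1.40), *4930453H23Rik* (-1.27), *4933403O08Rik* (-1.24) and *1700020N15Rik* (-1.17).

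The Y chromosome had 1 gene, *1700040F15Rik*, in 3 rows where it is the first symbol. Its wild-type averages were 9.24, 9.60 and 9.17 and its *Ctcf*-cKO averages 7.92, 8.29 and 7.90, so that all 3 rows were lower, by -1.32, -1.31 and -1.27. Whether the probes tell these copies apart was not tested, and the rows count as 1 gene here. The autosomes held the remaining 239 genes, 235 lower and 4 higher, with lower genes on each of them.

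The table also lists, for most genes, the tissues whose EST libraries contained the transcript. An EST is a short read of a cDNA clone. Of the 257 RIKEN testis-library genes with such a listing, 255 (99.2%) list testis, a share that the origin of the clones builds in, and 139 (54.1%) list no other tissue. The median gene listed 1 tissue. Coding rows with another kind of symbol listed a median of 4 tissues where they were lower and 24 where they were higher, and testis alone in 29.8% and 0.619%.

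The direction of the RIKEN testis-library genes was set beside this breadth of listing. All 139 genes listed in testis alone were lower (median -1.44), as were 76 of 79 listed in testis and 1 to 3 other tissues (96.2%, median -1.33) and 33 of 37 listed in testis and 4 or more others (89.2%, median -1.18). Coding rows with another kind of symbol were lower in 493 of 502 rows listed in testis alone (98.2%), 372 of 391 with 1 to 3 other tissues (95.1%) and 696 of 1839 with 4 or more (37.8%). At a listing in testis alone, the shares of the RIKEN testis-library genes and of the other coding rows were therefore close. Among the classes that list testis the gap between them was widest at 4 or more other tissues. That class has no upper limit, and the number of tissues inside it was not matched. Whether the gap there reflects unequal breadth was not tested. Among the 33 lower genes of that broad class were *4930503L19Rik* (-1.57), *Cfap61*, *Meikin*, *Cfap97* and *Armt1*. Of the 2 genes listed in other tissues without testis, *4930564B18Rik* (*Erich6b*) had a difference of -1.41 and *4933409K07Rik* -1.30.

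**Figure D4:**
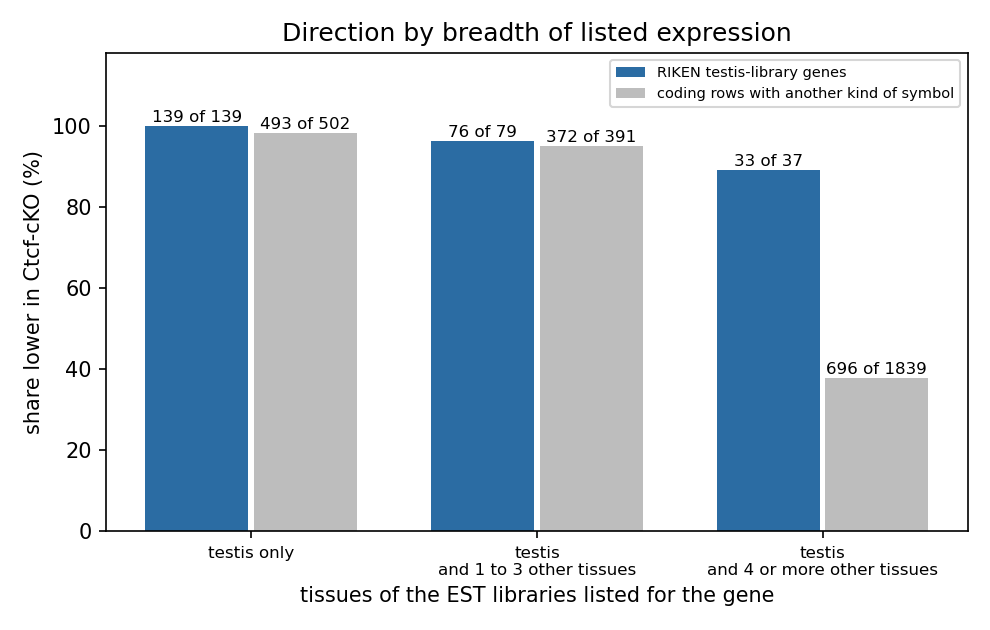
Share of genes or rows lower in *Ctcf*-cKO (percent, vertical axis) by the tissues of the EST libraries listed for them (horizontal axis), for RIKEN testis-library genes (blue) and coding rows with another kind of symbol (grey), with counts above the bars. Both stand near 100% where testis is the only tissue listed, and at 4 or more other tissues they stand at 89.2% and 37.8%. This last class has no upper limit, and the number of tissues inside it was not matched.

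Little is annotated for these genes. A Gene Ontology process term beyond the root was listed for 43 of the 267 (16.1%), against 49.4% of the lower and 76.3% of the higher coding rows with another kind of symbol. The term spermatogenesis was given to 0 of the 267 genes, to 2 of the 56 rows of other RIKEN libraries and to 135 of 2223 lower rows with another kind of symbol. A count of genes by this term in the table thus includes none of *Meikin*, *Terb2*, *Spem2*, *Llcfc1* or the Cfap genes that carry a RIKEN name.

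The differences of the 7 higher genes ran from 1.13 to 2.96, and all 7 list EST tissues besides testis. The highest was *4930486L24Rik* on chromosome 13, which is listed with peptidase domains of the papain family. Besides testis, this gene lists bone marrow, extraembryonic tissue, lymph node and uterus. It went from 5.11 in wild-type to 8.07 in *Ctcf*-cKO, a fold of 7.78. *1700024P16Rik*, now *Fyb2*, an adaptor protein of T cell receptor signalling, averaged 7.31 and 9.07 (1.76). *1700025G04Rik*, listed in 20 tissues, averaged 6.45 and 8.0 (1.55). *4930506M07Rik*, now *Shtn1*, which acts in the outgrowth of axons, averaged 8.04 and 9.48 (1.44).

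The other 3 higher genes are X-linked. *1700011M02Rik*, a long non-coding RNA in RefSeq, went from 7.37 in wild-type to 8.72 in *Ctcf*-cKO (1.35). *Ct55*, a cancer/testis antigen gene, averaged 6.50 and 7.65 (1.15), and the MAGE gene *4930550L24Rik* 6.80 and 7.93 (1.13).

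Markers of the cell types of the testis differed beside these genes. For the germ cells, 19 of 20 markers of round spermatids had a row, all lower (median -1.39), as were 9 of 13 markers of primary spermatocytes (median -1.22) and 5 of 13 of elongating spermatids (median -1.04). The study names *Hook1*, *Spata16*, *Spem1* and *H1fnt* of these lists as down-regulated in the same arrays, so their direction was known beforehand. Among the markers without a row, it reports *Prm1* and *Prm2* as not down-regulated and *Sycp3* as not affected. For the somatic cells, 7 of 8 Leydig cell markers (1.39 to 2.97), 7 of 10 Sertoli cell markers (1.39 to 2.28), 3 of 5 of peritubular myoid cells, 4 of 6 of macrophages and 2 of 5 of endothelial cells had a row, and all of those were higher. Of 9 spermatogonia markers, *Kit*, which Leydig cells also make, alone had a row (7.81 and 10.09, 2.28). The part of the mixture of cells in the differences of the RIKEN testis-library genes was not tested.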

How the data were processed

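RNA from 3 wild-type mice and from 4 mice with *Ctcf* deleted was read on the Affymetrix Mouse Transcriptome Array 1.0. The submitters' processing notes name RMA, Expression Console 1.4.1, Transcriptome Analysis Console 3.0 and build mm10. The deposited table gives the authors' bi-weight log2 average per genotype, written with decimal commas, for the 7580 clusters that passed the thresholds (a 2-fold change and a p of 0.05). This filter removes small differences. The authors' fold changes, p-values and adjusted p-values were not used. Averages were subtracted (pandas 2.3.3) with 1 row per first symbol, that of the largest absolute difference. No linear model was fitted, because there are no single-array values. Genes named were drawn from the 12 lowest, the 12 highest, the 6 highest and 3 lowest wild-type averages, sex-linked genes and renamed genes of listed families, with ranges for the families' other genes; further genes and pairs were named after their values were seen. Members and lists were chosen with earlier results of these data known. The code passed 10 of 10 checks of its reading and matching steps on small made-up inputs, and no expression data were simulated. Promoters and symbols are from RefSeq. Positions are those of the table.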

Additional observations from a re-analysis of the deposited data

How the results depend on the processing

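Counting rows, counting a gene by any symbol of its row (18 genes more), requiring an average of 6 in either genotype, leaving out 2 rows with equal values, and leaving out 2 genes described as DUF622 (chosen after seeing the data) gave 258 to 278 lower genes, 7 higher genes and a median difference of -1.37 throughout. With a linear fold of 3, 37 genes were lower and 2 higher. With class Coding alone, 145 were lower and 3 higher, with a median of -1.41; here rows of class Complex were dropped before 1 row per gene was chosen, so *4930488N24Rik*, with a row in each class, is counted as well. Re-centred on the median of all rows, 0 lower genes stayed past the 2-fold threshold, 7 were higher and the median was -0.23; the rows were chosen by the authors for their size, so this median is not the median of the array. No paired analysis was possible because the table holds group averages alone. For the same reason leaving out single mice and limma were not run, and the signal over background of single arrays is not known.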

Other observations

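Of the 7 rows, for 6 genes, that carry a clone number of the same libraries but a DUF622 or Takusan domain, all were lower in *Ctcf*-cKO, with differences from -1.46 to -1.11 and a median of -1.36. Besides the Y-linked gene, 2 of the 267 genes had several rows. *4930488N24Rik* had 2 rows on chromosome 17, with averages of 9.65 and 7.95 (-1.70) in the row from 14101819 to 14106450 and of 9.83 and 8.34 (-1.49) in that from 21129351 to 21130877. *4933409K07Rik* had 1 row on chromosome 4 and 2 on unlocalized pieces of it. Of these 3 rows, 2 had the same averages (9.45 and 8.15, -1.30) and the third 9.34 and 8.23 (-1.11). Among the lower genes, *1700064H15Rik* had the lowest wild-type average (6.04, against 4.73 in *Ctcf*-cKO) and *Clec2m* the highest; *1700029H14Rik* (11.80 and 10.72) and *1700034I23Rik* (11.42 and 10.19) were also among the 6 highest. The averages of different clusters are not comparable as levels.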
